A study of Mus musculus with 8 samples.

Results

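The genes described here encode 10 proteins that travel with RNA polymerase II on transcribed chromatin and that work beside *Setd2*, the histone H3 lysine-36 methyltransferase. They are *Supt16* and *Ssrp1*, the subunits of the histone chaperone FACT; *Supt5*, the large subunit of DSIF; *Supt6* and *Iws1*; and *Paf1*, *Ctr9*, *Cdc73*, *Leo1* and *Rtf1* of the PAF1 complex. They were chosen by name, as known elongation partners of *Setd2*, and all 10 were found by Ensembl identifier among the 48709 genes of the count table and passed the filter on low counts, which 14929 genes passed.

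Elongating polymerase has to pass through nucleosomes. FACT loosens and rebuilds the histone octamer around it, DSIF clamps the polymerase and SPT6 carries histones and binds the polymerase together with IWS1. The PAF1 complex bridges the polymerase and chromatin-modifying enzymes, among them the enzymes that ubiquitinate histone H2B. SETD2 is recruited by the phosphorylated tail of the elongating polymerase, and the methyl mark that it places lies over gene bodies.

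RNA was sequenced from 8 mouse lung tumors, 4 labelled K-Ctrl and 4 labelled K-Setd2KO. All mice had a mixed B6J/129S4vJae background, and tumors were started by LentiCRISPRv2Cre given through the trachea, so Cre and Cas9 acted in the lung cells that took up the virus. The vector carried an sgRNA against GFP in K-Ctrl and an sgRNA against *Setd2* in K-Setd2KO, and K-Setd2KO tumors were low grade adenomas compared with controls of matched stage. For its mouse models as a whole, of both sexes, the study gives only an upper age by which tumors were started. The age of these mice, the time after infection and whether the tumors came from separate mice are not given in the sources used here, so p-values measure the spread between these tumors. The labels' extraction text speaks of cell lines where their design text speaks of frozen tumors, which could not be resolved.

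Total counts were lowest in K-Setd2KO replicate 4 (5806599) and highest in K-Ctrl replicate 3 (21290402). Between the groups, 1897 of 14929 tested genes (12.7%) passed edgeR's quasi-likelihood test at a Benjamini-Hochberg adjusted p of 0.05, with 742 (4.97%) rising and 1155 (7.74%) falling in K-Setd2KO. In 3027 genes (20.3%) the values of the groups did not overlap. Markers of other cells moved with genotype: 4 of 5 pan-leukocyte markers fell, with a summed level of 417 to 836 CPM (counts scaled to a library of common size with TMM factors) in K-Ctrl and 145 to 199.8 CPM in K-Setd2KO, and 4 of 5 macrophage markers fell, from 424 to 1422 CPM down to 146 to 290.0 CPM. Of the endothelial markers 2 of 5 fell, of the fibroblast and T cell markers 1 of 5 each, of the proliferation markers 2 of 8, and no smooth muscle or B cell marker passed the test. Epithelial markers rose in 2 of 5, with sums of 1782 to 2761 CPM against 2526 to 3065 CPM, and of 7 alveolar type 2 markers 1 rose and 1 fell. The part of this cell makeup in the differences described below was not tested. In bulk tumors, fewer cells of a type and less RNA per cell cannot be told apart. By the sex-linked genes, 1 K-Ctrl and 3 K-Setd2KO tumors were read as female, so genotype and sex were unevenly mixed.

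*Setd2* itself (chromosome 9, 110532597 to 110618633, plus strand, GRCm38) had 153, 138, 132 and 138 CPM in K-Ctrl replicates 1 to 4. It had 145, 121, 124 and 153 CPM in K-Setd2KO replicates 1 to 4, the order in which tumors are given throughout. The groups overlapped, and the log2 fold change of K-Setd2KO against K-Ctrl was -0.05 ± 0.12 (SE; edgeR adjusted p = 0.824). A count over the whole gene does not read the edit at the guide's cut, so it gave no check of the genotype labels. The coordinates given here for genes are those of the deposited table. An annotated gene on the same strand, *Gm42763*, overlaps *Setd2*.

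Of the 10 elongation genes, 1 passed the test, beside 12.7% of all genes tested. This was *Leo1*, which rose 1.45-fold in K-Setd2KO (log2 fold change 0.54 ± 0.14 SE), and no member fell, where 7.74% of all genes fell. Log2 fold changes were positive in 7 members and negative in 3, beside 52.7% positive over all genes, and their median was 0.06, beside 0.03 over all genes tested. With a tumor left out, the members' median ran from 0.0066, without K-Setd2KO replicate 2, to 0.12, without K-Ctrl replicate 4. The values of the groups did not overlap for 3 members, *Supt16*, *Iws1* and *Leo1*, beside 20.3% of all genes. An unadjusted p under 0.05 was reached by 2 members, *Iws1* and *Leo1*, beside 4464 of the 14929 genes tested (29.9%), a larger share. The summed level of the 10 genes was 1072 to 1202 CPM in the K-Ctrl tumors against 1155 to 1207 CPM in K-Setd2KO, ranges that overlapped.

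**Figure D1:**
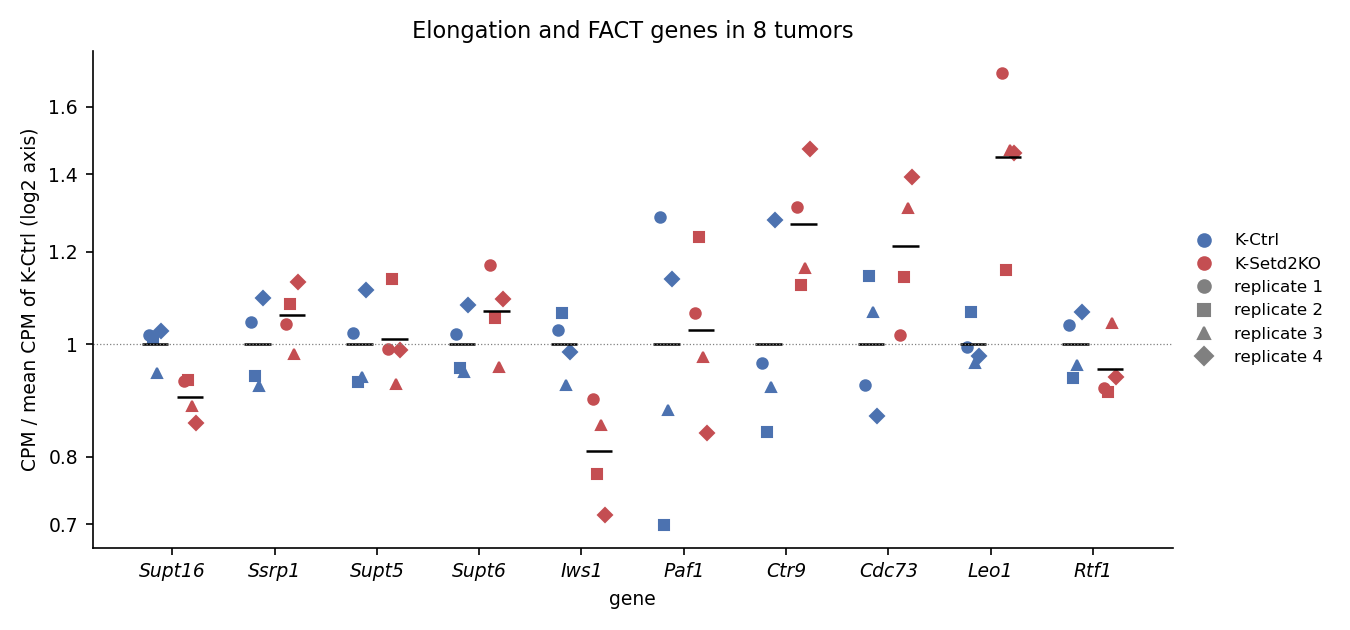
CPM of each gene in each of 8 tumors, divided by the mean CPM of the 4 K-Ctrl tumors, on a log2 axis. Symbols give the replicate number and short lines the group means. The K-Setd2KO points of Leo1 lie above all K-Ctrl points, and those of Supt16 and Iws1 lie below them.

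**Figure D2:**
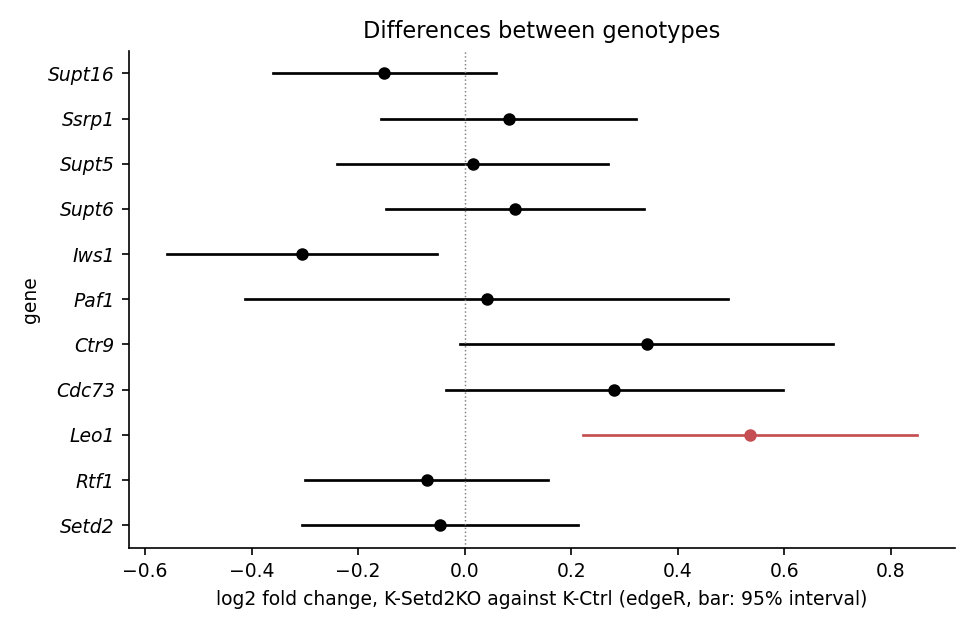
Log2 fold change of K-Setd2KO against K-Ctrl from edgeR for the 10 genes and Setd2, with 95% confidence intervals as bars. The interval of Leo1, drawn in red, runs from 0.22 to 0.85 and is that of the member past the adjusted threshold.

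To compare levels between genes, counts were divided by the summed exon length of the deposited table and scaled to TPM, a level per length that sums to the same total in each tumor. *Ssrp1* had the highest level, with a mean of 112 TPM over the 8 tumors, followed by *Paf1* at 95.7 TPM, *Supt16* at 84.6 TPM, *Supt5* at 70.3 TPM and *Supt6* at 65.9 TPM. *Rtf1* and *Leo1* came next at 46.2 and 45.7 TPM, and *Ctr9*, *Cdc73* and *Iws1* were lowest at 34.96, 25.9 and 17.6 TPM. Not every step of this order held in each tumor. *Rtf1* exceeded *Leo1* in 4 of 8 tumors, which were the 4 K-Ctrl tumors (44.5 to 49.9 TPM against 35.7 to 39.9 TPM), and *Leo1* exceeded *Rtf1* in the 4 K-Setd2KO tumors (38.5 to 62.1 TPM against 38.3 to 51.7 TPM). In K-Setd2KO replicate 2 they were nearly level, at 38.5 and 38.3 TPM. *Paf1* exceeded *Supt16* in 6, *Supt5* exceeded *Supt6* in 6, and *Ssrp1* exceeded *Paf1* in 7. *Supt16* exceeded *Supt5*, *Supt6* exceeded *Rtf1* and *Cdc73* exceeded *Iws1* in all 8. The level of *Ssrp1* was above that of 91.7% of the genes tested, and the level of *Iws1* above that of 53.5%. The length used is the union of all annotated exons, 17613 bases for *Cdc73* and 11083 bases for *Iws1* against 2192 bases for *Leo1*, so a gene with long exons that tumors rarely use has its level understated.

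**Figure D3:**
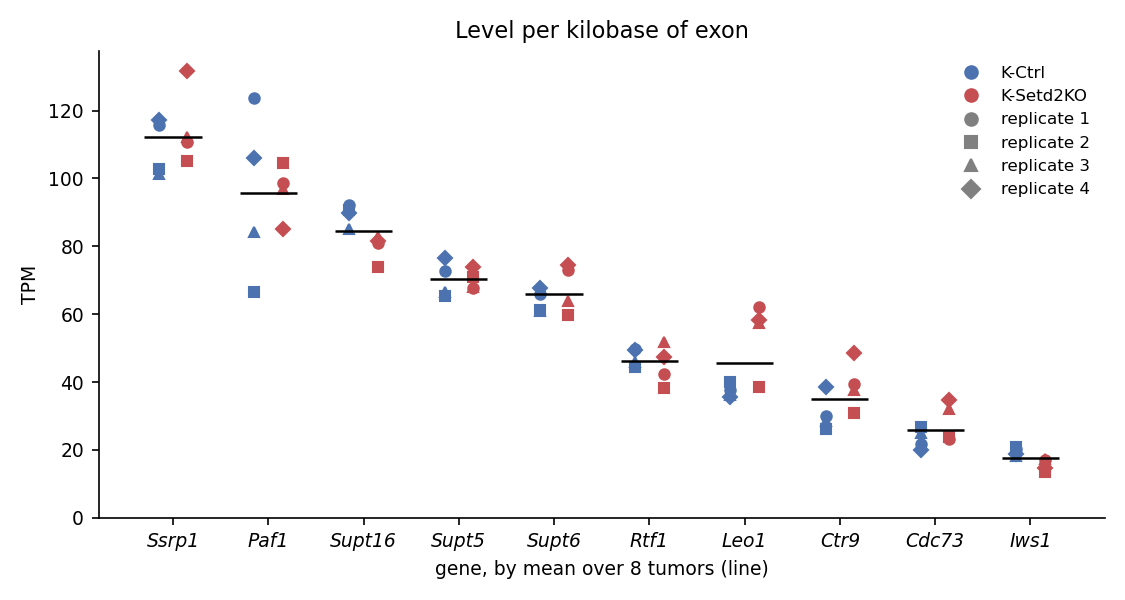
TPM of the 10 genes in each of the 8 tumors, ordered by the mean over all tumors, which the line marks. Ssrp1 sits highest, with a mean of 112 TPM, and Iws1 lowest, with a mean of 17.6 TPM, while Rtf1 lies above Leo1 in the 4 K-Ctrl tumors and below it in the 4 K-Setd2KO tumors.

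FACT is a dimer, and neither of its subunits passed the test. The values of 1 of them did not overlap between the groups, which held for 20.3% of all genes. *Supt16* (ENSMUSG00000035726.7; chromosome 14, 52160419 to 52197239, minus strand), which encodes the large subunit that holds histones H2A and H2B, had 143, 142, 133 and 144 CPM in the K-Ctrl tumors, against 131, 131, 124.5 and 120.3 CPM in K-Setd2KO. Every K-Setd2KO tumor was below every K-Ctrl tumor, by a small margin. The log2 fold change was -0.15 ± 0.09 (SE, 95% interval -0.36 to 0.06), with an edgeR adjusted p of 0.309. The two-sided exact permutation test on its log2 CPM gave p = 0.0286, the smallest that 4 against 4 tumors allow. That value follows from the lack of overlap and adds nothing to it. *Ssrp1* (ENSMUSG00000027067.16; chromosome 2, 85037234 to 85047109, plus strand), the subunit with the HMG box, had 149.6, 134, 132 and 157 CPM in the K-Ctrl tumors, against 149, 155, 140.4 and 162 CPM in K-Setd2KO. These ranges overlapped, and the log2 fold change was 0.08 ± 0.11 (SE, edgeR adjusted p = 0.643, exact permutation p = 0.314).

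The ratio of the FACT subunits was then taken within each tumor, where library size cancels. The log2 ratio of *Supt16* TPM to *Ssrp1* TPM stood at -0.33, -0.18, -0.25 and -0.38 in the K-Ctrl tumors, against -0.45, -0.51, -0.44 and -0.69 in K-Setd2KO. By TPM, *Supt16* was below *Ssrp1* in all 8 tumors, further so in each K-Setd2KO tumor than in any K-Ctrl tumor. By CPM it was above *Ssrp1* in K-Ctrl replicates 2 and 3. Within tumors read as female, mean log2 CPM differed between the groups by -0.16 for *Supt16* and 0.21 for *Ssrp1*. Within those read as male it differed by -0.17 and -0.05. The K-Ctrl mean was -0.29 ± 0.09 and the K-Setd2KO mean -0.52 ± 0.12 (SD, n = 4 each), which differ by -0.24. The two-sided exact permutation p was 0.0286, the smallest possible with these numbers, which follows from the lack of overlap. The lowest value came from the shallowest library, K-Setd2KO replicate 4, and without it the difference was -0.18 with an exact permutation p of 0.0571. Either FACT gene overlaps a gene on the opposite strand, *Rpgrip1* for *Supt16* and *P2rx3* for *Ssrp1*, and whether counting used the read strand is not given in the sources used here.

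DSIF and SPT6 showed no difference past the spread between tumors. *Supt5* (ENSMUSG00000003435.9; chromosome 7, 28314891 to 28338746, minus strand), through which DSIF both pauses the polymerase and, once phosphorylated, speeds it, had 145, 132, 133 and 158 CPM in K-Ctrl. In K-Setd2KO it had 141, 162, 131 and 140.3 CPM, overlapping the controls. The log2 fold change was 0.01 ± 0.11 (SE, 95% interval -0.24 to 0.27, edgeR adjusted p = 0.945), and its sign changed with the processing. *Supt6* (ENSMUSG00000002052.6; chromosome 11, 78206746 to 78245987, minus strand), a histone chaperone that also reads the phosphorylated polymerase, had 162, 152, 151 and 172 CPM in the K-Ctrl tumors, against 186, 168, 152 and 174 CPM in K-Setd2KO. The groups overlapped, with a log2 fold change of 0.10 ± 0.11 (SE, edgeR adjusted p = 0.593). Both genes overlap a gene on the opposite strand, *Gm44709* for *Supt5* and *Sdf2* for *Supt6*.

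*Iws1* (ENSMUSG00000024384.4; chromosome 18, 32067741 to 32104328, plus strand), which binds SPT6 and is known to help bring SETD2 and RNA export factors to the elongating polymerase, was the member with the lowest values in K-Setd2KO relative to K-Ctrl. It had 77.8, 80.5, 69.9 and 74.5 CPM in the K-Ctrl tumors, against 67.9, 58.5, 64.4 and 53.9 CPM in K-Setd2KO. The groups did not overlap, the margin being the gap between K-Ctrl replicate 3 and K-Setd2KO replicate 1. The log2 fold change was -0.31 ± 0.11 (SE, 95% interval -0.56 to -0.05) with an unadjusted p of 0.0235, and the edgeR adjusted p of 0.106 missed the threshold. With trends in gene length and GC content removed, the log2 fold change was -0.16 with an adjusted p of 0.399. Within the tumors read as female, 1 K-Ctrl against 3 K-Setd2KO, mean log2 CPM differed by -0.43, and within those read as male, 3 against 1, by -0.20. The 14 tested genes within 1 Mb of *Iws1* had a median log2 fold change of -0.11, and none of them passed the adjusted test with edgeR.

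In the PAF1 complex, *Leo1* rose, *Ctr9* and *Cdc73* had higher means that missed the threshold, and *Paf1* and *Rtf1* did not pass either. *Paf1* (ENSMUSG00000003437.14; chromosome 7, 28392951 to 28399388, plus strand), the scaffold that names the complex, had 147, 80.1, 101 and 130.4 CPM in the K-Ctrl tumors, against 122, 142, 112 and 96.2 CPM in K-Setd2KO. It varied most among the 10 genes in K-Ctrl, with a coefficient of variation of 26.2%. Its log2 fold change of 0.04 ± 0.20 (SE, 95% interval -0.41 to 0.49, edgeR adjusted p = 0.914) left room for a change of either sign.

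*Ctr9* (ENSMUSG00000005609.16; chromosome 7, 111028951 to 111056377, plus strand), a repeat-rich scaffold subunit, had 83.4, 72.8, 79.5 and 111 CPM in the K-Ctrl tumors, against 114, 97.4, 101 and 127.5 CPM in K-Setd2KO. K-Ctrl replicate 4 lay among the values of the other group. The log2 fold change was 0.34 ± 0.16 (SE, 95% interval -0.01 to 0.69, edgeR adjusted p = 0.177). *Cdc73* (ENSMUSG00000026361.9; chromosome 1, 143598800 to 143702893, minus strand), whose product parafibromin is a known tumor suppressor of the parathyroid, had 133, 165, 154 and 125.5 CPM in the K-Ctrl tumors, against 147, 165, 189 and 201 CPM in K-Setd2KO. The groups overlapped, and the log2 fold change was 0.28 ± 0.14 (SE, edgeR adjusted p = 0.216). With trends in gene length and GC content removed it was 0.51 with an adjusted p of 0.0346, so the call for *Cdc73* depended on that correction. *Cdc73* also overlaps *B3galt2* and a pseudogene on the opposite strand.

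*Leo1* (ENSMUSG00000042487.5; chromosome 9, 75441524 to 75466432, plus strand), which with PAF1 forms the module that contacts histones, overlaps no other annotated gene. It had 28.6, 30.6, 27.7 and 28.0 CPM in K-Ctrl, a coefficient of variation of 4.56%. In K-Setd2KO it had 49.1, 33.3, 42.2 and 41.9 CPM, so that all 4 tumors exceeded every control while K-Setd2KO replicate 2 came closest to them. The log2 fold change was 0.54 ± 0.14 (SE, 95% interval 0.22 to 0.85) with an edgeR adjusted p of 0.0369. It was above that of 86.1% of the genes tested. The difference in mean log2 CPM was 0.42 within the tumors read as female and 0.58 within those read as male.

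The direction for *Leo1* held throughout while the call did not. DESeq2 gave a log2 fold change of 0.53 with an adjusted p of 0.0146, and limma voom 0.53 with 0.0440. With a sex term the adjusted p was 0.0992, and with no filter on low counts it was 0.0628. Leaving out any of the 4 K-Ctrl tumors, or K-Setd2KO replicate 1, 3 or 4, raised the adjusted p to between 0.0676 and 0.107, with log2 fold changes between 0.45 and 0.57. Without K-Setd2KO replicate 2 the log2 fold change was 0.62 and the adjusted p was 0.0190. Among the 11 tested genes within 1 Mb of *Leo1* the median log2 fold change was -0.07, and 5 passed the test, 1 higher and 4 lower, beside 4.97% higher and 7.74% lower of all genes.

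*Rtf1* (ENSMUSG00000027304.9; chromosome 2, 119675068 to 119735407, plus strand), the loosely attached member that is known to stimulate H2B ubiquitination directly, had 99.0, 89.2, 91.5 and 101.5 CPM in the K-Ctrl tumors, against 87.4, 86.7, 99.3 and 89.3 CPM in K-Setd2KO. The groups overlapped, with a log2 fold change of -0.07 ± 0.10 (SE, edgeR adjusted p = 0.676) whose sign turned with a sex term, at 0.0035.

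Taken as a sum of the 5 genes, the PAF1 complex had 492, 438, 453.5 and 496 CPM in the K-Ctrl tumors, against 519, 524, 543 and 556 CPM in K-Setd2KO, with no overlap. The sum without *Leo1* did not overlap either, at 407 to 468 CPM and 470.3 to 514 CPM. Summed as TPM, which divides each count by exon length, the ranges were 204 to 263 TPM and 236 to 276 TPM and overlapped. The separation therefore depended on the scale. These sums carry no test.

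At the level of mRNA, the makeup of the complex was compared as each gene's share of the summed TPM. An exact permutation test was run for each of the 5 shares, with adjustment over them. *Rtf1* made up 19.0%, 21.8%, 20.9% and 19.8% in K-Ctrl and 15.9%, 16.3%, 18.8% and 17.3% in K-Setd2KO. These groups did not overlap, with means of 20.4% ± 1.248 and 17.1% ± 1.27 (SD, n = 4 each, exact permutation p = 0.0286, adjusted 0.143). *Leo1* made up 14.3%, 19.6%, 16.5% and 14.3% in K-Ctrl and 23.4%, 16.3%, 20.8% and 21.2% in K-Setd2KO. K-Setd2KO replicate 2 lay among the controls, and the means were 16.2% ± 2.495 and 20.4% ± 2.97 (SD, n = 4 each, exact permutation p = 0.0857, adjusted 0.214). *Paf1* had the largest mean share of TPM in both groups, at 40.1% ± 6.10 and 36.9% ± 5.52 (SD, n = 4 each, exact permutation p = 0.457). By CPM, without exon length, *Cdc73* had the highest mean of the 5, at 145 and 176 CPM against 115 and 118 CPM for *Paf1*. *Ctr9* held 13.2% and 14.8% and *Cdc73* 10.2% and 10.8%, both with overlapping groups. None of the 5 shares passed after adjustment by the exact permutation test, and 1 had an unadjusted p under 0.05.

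**Figure D4:**
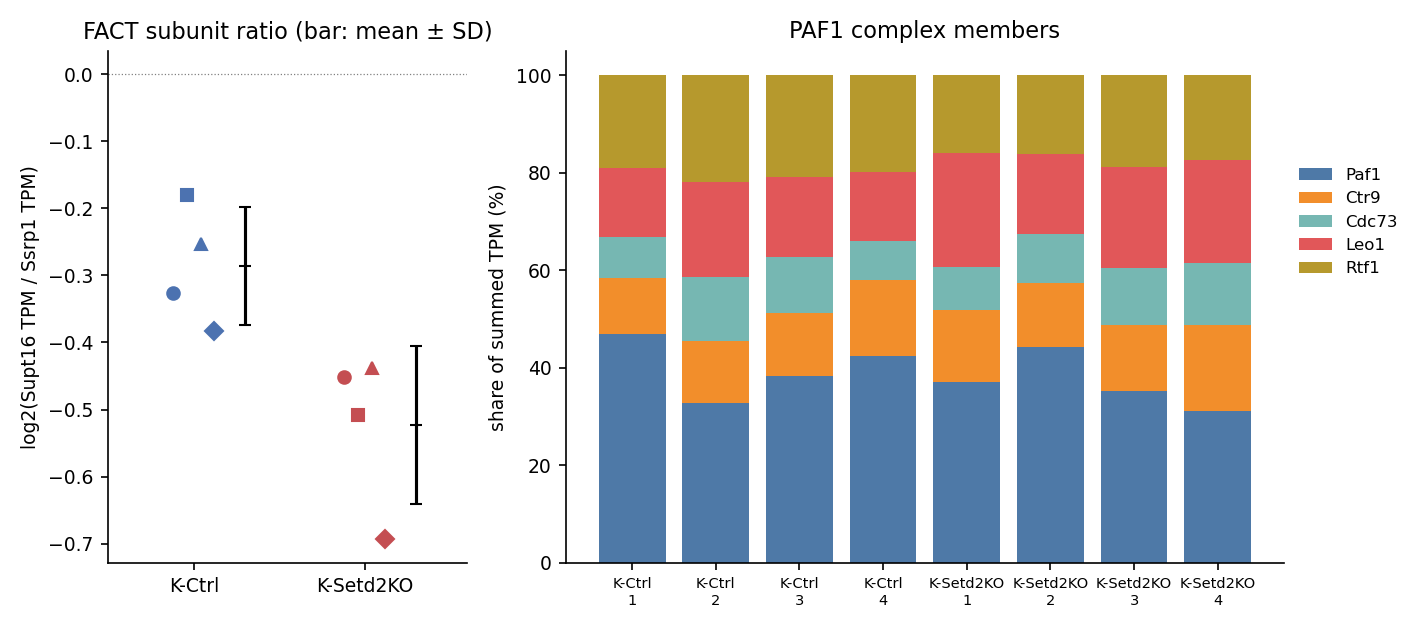
Left, log2 ratio of Supt16 TPM to Ssrp1 TPM in each tumor (circle, square, triangle and diamond for replicates 1, 2, 3 and 4), with the mean and SD of the 4 tumors of a group beside the points; the K-Setd2KO points lie below all K-Ctrl points. Right, the share of each PAF1 complex gene in their summed TPM, as a percentage, for each tumor; the Rtf1 segment is 19.0% to 21.8% in K-Ctrl and 15.9% to 18.8% in K-Setd2KO.

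*Leo1* was the member past the threshold. The share of *Rtf1* in the PAF1 complex TPM was lower in each K-Setd2KO tumor than in any K-Ctrl tumor, but did not pass after adjustment. The sequences before the annotated starts of both genes are given for these reasons. The set of RefSeq starts used, on GRCm38.p6, held 9 such windows for 8 of the 10 genes, with 2 for *Ssrp1* and none for *Ctr9* and *Iws1*. Each run is the 250 bases before the start, 5′ to 3′ on the gene's plus strand, at chr9:75441274-75441523 for *Leo1* and chr2:119674818-119675067 for *Rtf1*, and neither overlaps an annotated exon. Capitals mark matches to the searched motifs on either strand.
Leo1: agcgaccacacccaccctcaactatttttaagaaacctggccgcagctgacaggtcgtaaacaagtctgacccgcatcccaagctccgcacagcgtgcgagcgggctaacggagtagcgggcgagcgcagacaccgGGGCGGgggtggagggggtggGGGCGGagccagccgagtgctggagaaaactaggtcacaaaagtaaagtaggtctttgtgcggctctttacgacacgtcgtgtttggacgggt
Rtf1: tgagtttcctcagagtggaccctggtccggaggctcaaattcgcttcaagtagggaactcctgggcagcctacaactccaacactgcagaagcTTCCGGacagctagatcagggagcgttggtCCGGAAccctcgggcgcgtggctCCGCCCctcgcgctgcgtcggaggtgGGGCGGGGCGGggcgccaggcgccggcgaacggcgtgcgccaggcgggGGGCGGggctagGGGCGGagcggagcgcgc
The *Leo1* window has 21 CpG dinucleotides and the *Rtf1* window 28, beside a median of 6 over all 32851 windows, and the 9 windows of the members ran from 10 to 47. The GC box GGGCGG, the site of SP1-type factors, occurs 2 times in the *Leo1* window, 114 and 93 bases before the start. In the *Rtf1* window it occurs 5 times, of which 2 matches share 1 base, and the ETS core CCGGAA occurs 2 times. No matches of different motifs overlap in either window. A GC box was present in 7 of 9 member windows, those of *Ssrp1* differing in it, against 32.7% of all windows, and the ETS core in 2 of 9 against 12% of all. The CRE core TGACG was found in 3 of 9 (17.8% of all), CCAAT in 1 (33.8%) and the E-box CACGTG in 1 (6.02%). TATAAA (12.4% of all) and the NRF1 core GCGCATG (3.24%) were in none of the 9. These are matches of letters within 250 bases and say nothing of binding.

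The wider elongation machinery was read from a list of 78 other genes in 13 groups, of which 77 were tested. Only 4 passed the edgeR test, 3 higher and 1 lower in K-Setd2KO, which is 5.19% of the list beside 12.7% of all genes. Of the 77, 58 had positive and 19 negative log2 fold changes, beside 52.7% positive over all genes, and their median was 0.16 beside 0.03. An unadjusted p under 0.05 was reached by 17 of the 77, beside 29.9% of all genes. The groups did not overlap for 13 of the 77, beside 20.3% of all genes. The one gene not tested, *Ell3*, had at most 4 counts in any tumor. The summed level of the 78 genes was 5294 to 5396 CPM in the K-Ctrl tumors, against 6033 to 6359 CPM in K-Setd2KO. Without the histone H3.3 genes *H3f3a* and *H3f3b* it was 4802 to 4919 CPM and 5300.0 to 5779 CPM, and neither sum overlapped between the groups. As TPM the 78 genes had 3732 to 3909 in K-Ctrl against 4168 to 4871 in K-Setd2KO. Without the H3.3 genes the TPM ranges nearly met, at 3290 to 3407 against 3409 to 4059. These sums carry no test.

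**Figure D5:**
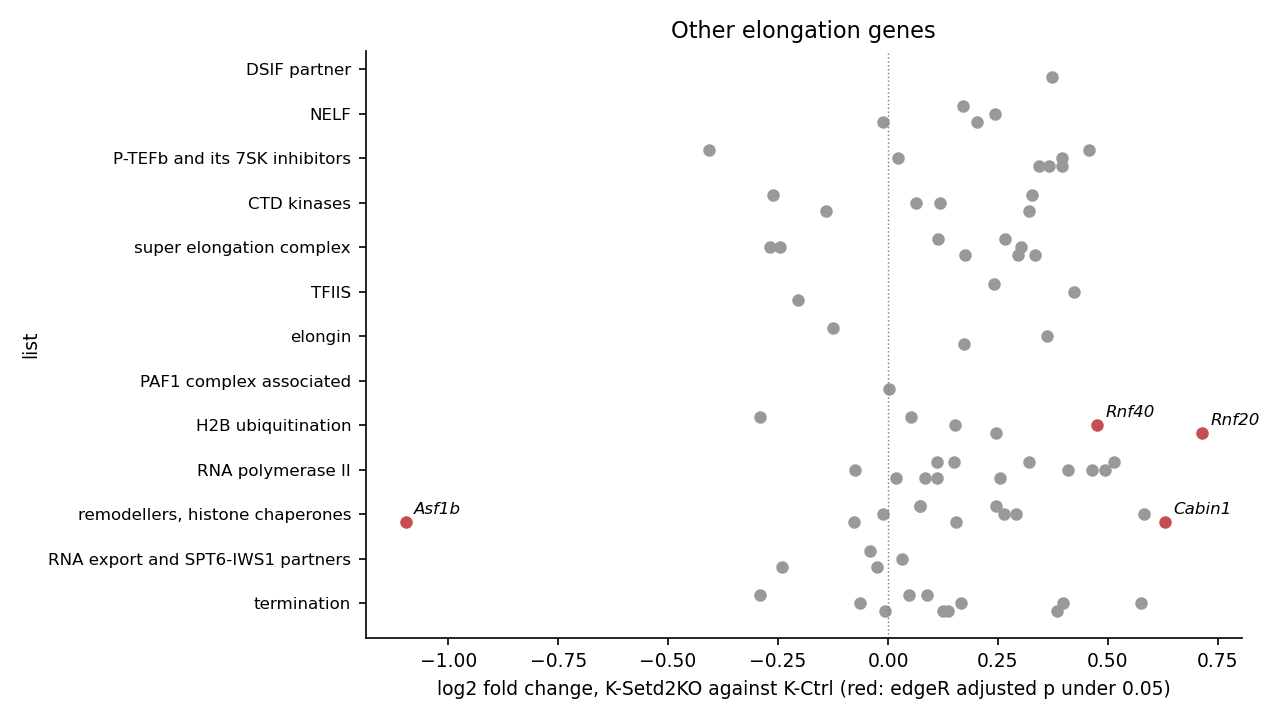
Log2 fold change of K-Setd2KO against K-Ctrl for the 77 tested genes of the wider elongation list, 1 point a gene, by group of genes. Points past an edgeR adjusted p of 0.05 are red and named; Rnf20, Rnf40 and Cabin1 lie to the right and Asf1b to the left, and most of the other points lie right of 0.

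Of 6 genes of the H2B ubiquitination group 2 passed, both higher, beside 4.97% of all genes, and these encode the E3 ligase that acts with the PAF1 complex. *Rnf20* had 224, 202, 215 and 288 CPM in the K-Ctrl tumors, against 430.0, 326, 307 and 463 CPM in K-Setd2KO, with no overlap. Its log2 fold change was 0.71 ± 0.18 (SE, edgeR adjusted p = 0.0322). Its partner *Rnf40* had 75.5, 69.8, 76.1 and 93.4 CPM in the K-Ctrl tumors, against 102, 129, 104 and 102 CPM in K-Setd2KO, again with no overlap. The log2 fold change of *Rnf40* was 0.48 ± 0.13 (SE, edgeR adjusted p = 0.0463). The other 4 genes of the group did not pass, although *Ube2a* did without K-Setd2KO replicate 2: the E2 enzymes *Ube2b* at 0.25 and *Ube2a* at -0.29, the adaptor *Wac* at 0.15 and the deubiquitinase *Usp22* at 0.05 on the log2 scale. Summed, the 6 genes had 631 to 718 CPM in the K-Ctrl tumors, against 813 to 926 CPM in K-Setd2KO, without a test.

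Among 11 chromatin remodellers and histone chaperones of transcribed genes, 1 rose and 1 fell, beside 4.97% and 7.74% of all genes. *Cabin1*, a subunit of the HIRA complex that deposits histone H3.3, had 54.1, 71.1, 57.7 and 72.7 CPM in the K-Ctrl tumors, against 83.8, 128, 90.4 and 93.3 CPM in K-Setd2KO. It rose by 0.63 ± 0.17 on the log2 scale (SE, edgeR adjusted p = 0.0387), while *Hira* itself, at 0.29, did not pass. *Asf1b*, the histone H3-H4 chaperone that serves dividing cells, had 6.09, 6.22, 4.57 and 7.14 CPM in the K-Ctrl tumors, against 3.08, 2.68, 2.22 and 3.25 CPM in K-Setd2KO. It fell by 1.10 ± 0.26 on the log2 scale (SE, edgeR adjusted p = 0.0284), on 19 to 99 counts a tumor. The 8 proliferation markers summed to 312 to 335 CPM in the K-Ctrl tumors, against 115 to 236 CPM in K-Setd2KO, moving the same way as *Asf1b*, and their part in its fall was not tested. *Asf1a*, the paralog not tied to division, had a log2 fold change of 0.25 (edgeR adjusted p = 0.455).

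Each of these calls was lost under some settings. With a sex term none of the 4 passed, with adjusted p-values of 0.109 for *Rnf20*, 0.0958 for *Rnf40*, 0.121 for *Cabin1* and 0.0506 for *Asf1b*. *Rnf40* and *Asf1b* were also lost with the replicate block (edgeR adjusted p = 0.113 and 0.0606) and with no filter (0.0774 and 0.0694). *Rnf40* was lost under a minimum of 10 counts per tumor as well (0.0540). *Rnf40* kept its call only when K-Ctrl replicate 4 was the tumor left out; leaving out any of the other 7 gave adjusted p-values from 0.0644 to 0.1253. *Rnf20* was lost without K-Ctrl replicate 1, 2 or 3 or K-Setd2KO replicate 1 or 4, at 0.0672 to 0.0958. *Cabin1* was lost without K-Ctrl replicate 1, 2 or 3 or K-Setd2KO replicate 2, 3 or 4, at 0.0579 to 0.111, and *Asf1b* without any K-Ctrl tumor or K-Setd2KO replicate 1 or 3, at 0.0509 to 0.0734. The directions held in every one of these fits. Of the same group as *Cabin1* and *Asf1b*, *H3f3b* passed without K-Setd2KO replicate 1 and *Chd2* with length and GC trends removed.

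In the remaining groups no gene passed the edgeR test as fitted here, and the gene with the smallest p of each is given. With DESeq2 *Rpap2* passed, and with length and GC trends removed *Cdk7*, *Ccnt2* and *Aff4* passed. *Ccnt2* and *Cpsf1* passed without K-Setd2KO replicate 2, and *Polr2e* without K-Setd2KO replicate 4. Counts of positive log2 fold changes, given for each group of more than 1 gene, stand beside the 52.7% over all genes and carry no test. RNA polymerase II had 11 of 12 positive log2 fold changes, with *Polr2f*, a small shared subunit, at 0.51 ± 0.16 (SE, edgeR adjusted p = 0.0687). Among P-TEFb and its inhibitors, 6 of 7 were positive, with *Mepce*, which caps the 7SK RNA, at 0.37 (adjusted p = 0.130). The partner of *Supt5* in DSIF, *Supt4a*, was at 0.37 (adjusted p = 0.215), the NELF subunit *Nelfb* (3 of 4 positive) at 0.24 (adjusted p = 0.257) and the polymerase tail kinase *Cdk7* (4 of 6 positive) at 0.32 (adjusted p = 0.129).

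The super elongation complex gave *Aff1*, its scaffold, at -0.27 (adjusted p = 0.153), with 6 of 8 tested members positive. The TFIIS gene *Tcea1*, whose product restarts backtracked polymerase, was at -0.20 (adjusted p = 0.333), with 2 of 3 TFIIS genes positive. The elongin subunit *Elob* was at 0.36 (adjusted p = 0.101), also with 2 of 3 positive. *Wdr61*, which binds the PAF1 complex, was at 0.0020 (adjusted p = 0.993) its K-Ctrl tumors averaging 38.9 ± 1.19 CPM and its K-Setd2KO tumors 39.0 ± 2.54 CPM (SD, n = 4 each). RNA export partners of SPT6 and IWS1 gave *Thoc5* at -0.24 (adjusted p = 0.287), with 1 of 4 positive. Of the termination genes, 8 of 11 positive, *Rpap2*, a phosphatase of the polymerase tail, was at 0.57 (adjusted p = 0.0772). These adjusted p-values are edgeR's over all 14929 genes.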

How the data were processed

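RNA from 8 lung tumors, 4 K-Ctrl and 4 K-Setd2KO, was sequenced after poly(A) selection with a stranded kit. The authors deposited 1 table of raw read counts per gene, not normalized, with versioned Ensembl identifiers, GRCm38 coordinates and summed exon lengths. The submitters' processing notes name STAR 2.5.2b, featureCounts 1.5.0-p1 and GRCm38.p4; the strand setting of counting is not given in the sources used here. Symbols came from GENCODE M21, in which 48349 identifiers (99.26%) were found.

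From these counts, edgeR 4.0.16 in R 4.3.3 was run with filterByExpr, TMM factors and a robust quasi-likelihood fit of genotype alone, with Benjamini-Hochberg adjustment over 14929 genes at 0.05. SEs were derived from the size of each log2 fold change and its F statistic, as their quotient with √F. CPM used TMM-scaled library sizes, and TPM the deposited exon length. Ratios and shares were compared by two-sided exact permutation over 70 assignments. DESeq2 1.42.0, limma 3.58.1, other factors and filters, a replicate block, a sex term, a length and GC correction and leaving out each tumor were alternatives. Scripts were tested on simulated counts. A limit of 3 counts was 0.141 CPM in the deepest and 0.517 CPM in the shallowest library, for counting error only. No libraries of the same group agreed within sampling noise (12 pairs, lowest chi-square 30.5 per degree of freedom).

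The members and gene lists were chosen with earlier results of these data known. Named were all 10 members, Setd2, every listed gene past the threshold and otherwise the gene with the smallest p of each group; other listed genes named beside them were chosen after their values were seen. An allele that all mice shared is not reported here.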

Additional observations from a re-analysis of the deposited data

Results flagged for a closer look

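In Rnf40, K-Setd2KO replicate 2 stood apart from the other 3 tumors of its group, at 129.3 CPM against 102 to 104 CPM. Its gap to the nearest tumor, as a share of the group's range, was above Dixon's 95% limit for 4 values. It was the only such value among 42 groups of 4 values examined, where chance gives 2.1 at 1 in 20. Without this tumor the log2 fold change of Rnf40 was 0.38, with an edgeR adjusted p of 0.0770.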

How the results depend on the processing

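The number of genes called was 1897, against 3211 with DESeq2, run with its own filter (18698 genes adjusted, against 14929), 1237 with a sex term and 763 to 2058 when a tumor was left out (938, 1126 and 763 without K-Ctrl replicates 1, 2 and 3, and 1011 without K-Setd2KO replicate 3). Of the 10 members, 0 passed with no filter on low counts, with the replicate block or with the sex term, 2 (Cdc73 and Leo1) with length and GC trends removed, and 0 to 1 when a tumor was left out. Of the 77 other elongation genes, 2 passed with no filter, 2 with the replicate block, 0 with the sex term, 8 with length and GC trends removed and 0 to 5 when a tumor was left out. The sign turned for Setd2 (0.079), Supt5 (-0.054) and Paf1 (-0.00019) with length and GC trends removed, for Supt5 under a minimum of 10 counts per tumor (-0.017) and for Rtf1 with the sex term (0.0035). When a tumor was left out, Supt5 ran from -0.053 to 0.070, Paf1 from -0.10 to 0.18 and the difference in the Cdc73 share from -0.19 to 1.55 percentage points. The members' median log2 fold change ran from 0.0066 to 0.12. The causes were not tested.

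Deviations of same-numbered tumors from their group means correlated weakly (r = -0.07, -0.03, 0.19 and -0.02). That of replicates 3 was the highest of any pairing across the groups. Whether the numbers pair the tumors cannot be told from these values. With the replicate block 1341 genes were called, the adjusted p of Leo1 was 0.100, and the difference in the FACT ratio was -0.24 with an exact sign-flip p of 0.125, the smallest that 4 pairs allow. Leaving out a tumor gave FACT differences of -0.27 to -0.18. A total of 5806599 counts in K-Setd2KO replicate 4 leaves 245 counts for Leo1 there.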
